A study of Mus musculus with 48 samples.

Results

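Glucocorticoid signalling was described in 4 brain regions of 12 mice through the transcripts of its receptors and of genes that its receptors are known to control. Of 8 genes named for this purpose, 7 had a row in the expression tables, among 15782 genes in all, and the eighth, Hsd11b1, which encodes an enzyme that regenerates active glucocorticoid inside cells, was not analysed here. The 7 genes were 2 receptors, Nr3c1 and Nr3c2, and 5 targets, Sgk1, Fkbp5, Tsc22d3, Zbtb16 and Cdkn1a. They were chosen by name, and the rule set no threshold on any measured value. Earlier results of these data were known at that time, so that shares of the 7 genes beside all genes are descriptions only.

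Corticosterone, the main glucocorticoid of mice, is released by the adrenal gland under stress and with the daily rhythm. In brain cells it binds the glucocorticoid receptor (Nr3c1) and, with higher affinity, the mineralocorticoid receptor (Nr3c2), and the hormone-bound receptors enter the nucleus and change transcription of their targets. Fkbp5, a co-chaperone that lowers the affinity of the glucocorticoid receptor for hormone, is induced by that receptor and so forms a negative feedback, and Sgk1, a serine/threonine kinase that regulates ion channels and transporters, is induced within hours of a rise in hormone. Tsc22d3 encodes GILZ, an anti-inflammatory leucine zipper protein. Zbtb16 encodes the zinc finger repressor PLZF. Cdkn1a encodes the cell cycle inhibitor p21, which is also a target of p53.

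The mice were C57BL/6 males, 10 weeks old at launch, assayed after flight or the matching time on the ground by digital spatial profiling, in which tagged probes are hybridized to a section and released by UV light from a chosen area of illumination (AOI). FLT-SAL and FLT-BuOE mice spent 35 days in orbit, while GC-SAL and GC-BuOE mice were kept on the ground in flight hardware cages under a protocol that began 3 days later. The BuOE groups received MnTnBuOE-2-PyP5+, a manganese porphyrin that mimics superoxide dismutase, at 1 mg/kg subcutaneously from 7 days before launch and then weekly, and the SAL groups received saline. Each group had 3 mice and each mouse gave 1 AOI in CA (hippocampal cornu ammonis), DG (dentate gyrus), FCT (frontal cortex) and CT (cortex), or 48 AOIs. Tissue of flight mice was collected after return, with arrival at the laboratory up to 20 h past splashdown, so that time in orbit, launch, return and transport are 1 condition here and cannot be told apart. Sections of the 3 mice of a group lay on 1 slide, so that slide and group cannot be told apart either.

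Values are Q3-normalized counts, that is, deduplicated probe counts scaled so that the upper quartile of every AOI was the same (40.0). Each of the 7 genes was read by 1 probe, so that its level is compared between AOIs and never with the level of another gene. The AOIs held 140 to 640 nuclei and 322629 to 1579380 deduplicated counts, and 1 count was worth 0.450 to 2.11 Q3 units, depending on the AOI. Depth was highest in FLT-SAL, with a median of 991426 counts, while the medians of the other groups were 548888 (FLT-BuOE), 628308 (GC-SAL) and 639735 (GC-BuOE). Every AOI held many cells, so that fewer cells of a type and less RNA per cell cannot be told apart. Summed dentate granule cell markers were 287 to 400.2 in DG and 90.8 to 153 elsewhere, and summed CA1 markers were 332.5 to 541 in CA and at most 257 elsewhere, as the region labels say.

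Signal over background differed among the genes. Probes with no target gave 9.24 to 13.5 Q3 units in DG, 12.1 to 18.0 in FCT, 13.3 to 16.8 in CT and 16.1 to 20.9 in CA. Nr3c1, Nr3c2 and Zbtb16 exceeded 1.5 times that value in 48 of 48 AOIs. Fkbp5 and Sgk1 did so in 45, Cdkn1a in 44 and Tsc22d3 in 38. All AOIs that fell short lay in the hippocampus except 1 (Fkbp5 in CT). Tsc22d3 passed in 7 of 12 AOIs of each hippocampal region. Its fold changes between groups within these regions include background in both terms and are understated.

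Hormone-bound glucocorticoid and mineralocorticoid receptors bind DNA as pairs, at inverted repeats of the hexamer AGAACA with 3 bases between the repeats. The RefSeq promoter table for GRCm38.p6 held 14 windows of 300 bases, from 250 before to 50 after a start site, for 6 of the 8 genes named above. The full palindrome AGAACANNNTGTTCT, searched on both strands, was present in 1 of the 6 Sgk1 windows and in 0.00913% of the 32851 windows of all genes. It began at position -189 from the start site of that window, and it is shown here because Sgk1 was the only 1 of the 7 genes to pass the test between flight and ground. The hexamer AGAACA on either strand, which every full palindrome also holds, was present in 3 of 6 Sgk1 windows and in 1 of 3 Tsc22d3 windows, against 19.0% of all windows, and the single windows of Fkbp5 and Nr3c2 and the 2 windows of Cdkn1a held none. The Sgk1 window with the palindrome (chr10:21993640-21993939, plus strand) and the Tsc22d3 window with a lone hexamer (chrX:140600473-140600772, minus strand), shown to compare a full with a partial match, read as follows, 5′ to 3′, with the match in capitals.
Sgk1: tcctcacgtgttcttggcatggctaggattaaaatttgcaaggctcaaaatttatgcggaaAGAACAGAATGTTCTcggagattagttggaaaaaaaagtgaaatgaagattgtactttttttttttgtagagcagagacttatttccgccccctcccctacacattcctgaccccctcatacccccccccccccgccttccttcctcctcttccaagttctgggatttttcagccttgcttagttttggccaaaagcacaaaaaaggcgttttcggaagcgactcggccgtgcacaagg
Tsc22d3: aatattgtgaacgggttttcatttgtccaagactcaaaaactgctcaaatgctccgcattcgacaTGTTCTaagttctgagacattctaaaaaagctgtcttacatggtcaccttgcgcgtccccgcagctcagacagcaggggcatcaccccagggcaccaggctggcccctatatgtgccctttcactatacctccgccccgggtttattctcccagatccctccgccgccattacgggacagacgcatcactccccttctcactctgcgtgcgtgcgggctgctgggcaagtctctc
These matches describe the letters of the windows and not binding, which was not measured.

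Of the receptor transcripts, Nr3c2 was higher in hippocampus than in cortex, and neither passed a test between the groups of mice. Nr3c2 (chr8:76899442-77245012, plus strand), whose product is the high-affinity receptor long known from the hippocampus, ranged from 71.2 to 120.1 with a median of 88.3 in CA and from 88.4 to 141 with a median of 106 in DG. It ranged from 24.3 to 40.0 with a median of 31.6 in FCT and from 24.7 to 39.3 with a median of 29.9 in CT. The lowest hippocampal AOI, in a GC-SAL mouse, lay above the highest cortical AOI, so that the 24 hippocampal and 24 cortical values did not overlap. Within mice, the mean of CA and DG exceeded that of FCT and CT by 1.63 on the log2 scale (SE 0.05, adjusted p = 1.24e-17, limma over 12 mice). DG exceeded CA by 0.29 (SE 0.09, adjusted p = 0.0304), which was under the fold of 1.5 (0.585 on the log2 scale) required for a call, and FCT and CT differed by 0.01 with a 95% interval of -0.18 to 0.20.

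Nr3c1 was more even across regions. Its values ran from 143 to 183 with a median of 161 in FCT, from 144 to 188 with a median of 159 in CT, from 129 to 185 with a median of 149 in DG and from 105 to 159 with a median of 136 in CA. The order of the mean levels was FCT, CT, DG and CA, and neighbours in that order differed by less than their SD over mice, except that DG exceeded CA by 0.20 with an adjusted p of 0.151. The mean of the hippocampal regions was -0.18 relative to cortex (SE 0.06, adjusted p = 0.0540, limma). At these levels, counts of 55 to 338 per AOI, Nr3c1 was the best measured of the 7 genes.

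Between FLT-SAL and GC-SAL, the largest difference of Nr3c1 was in FCT, where FLT-SAL mice had 153, 143 and 152 and GC-SAL mice 154, 173 and 160.1. The 3 flight values lay just below the 3 ground values, and the difference was -0.12 on the log2 scale (SE 0.14, adjusted p = 0.981). Averaged over the 4 regions it was -0.01, with a 95% interval of -0.20 to 0.17. For Nr3c2 the same average was 0.10 (-0.11 to 0.31).

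The receptor values with the 3 smallest unadjusted p in the comparisons of groups were all of Nr3c2 in DG. FLT-BuOE mice had 88.4, 92.6 and 93.4, while FLT-SAL mice had 141, 105 and 112, GC-BuOE mice 98.9, 130.1 and 133 and GC-SAL mice 91.1, 115 and 106. The FLT-BuOE values lay close together and below both FLT-SAL and GC-BuOE, and they overlapped GC-SAL. The differences were -0.37 from FLT-SAL (SE 0.15, adjusted p = 0.727) and -0.39 from GC-BuOE (SE 0.15, adjusted p = 0.408), and the interaction of flight and BuOE was -0.58 (SE 0.21, adjusted p = 0.600).

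**Figure D1:**
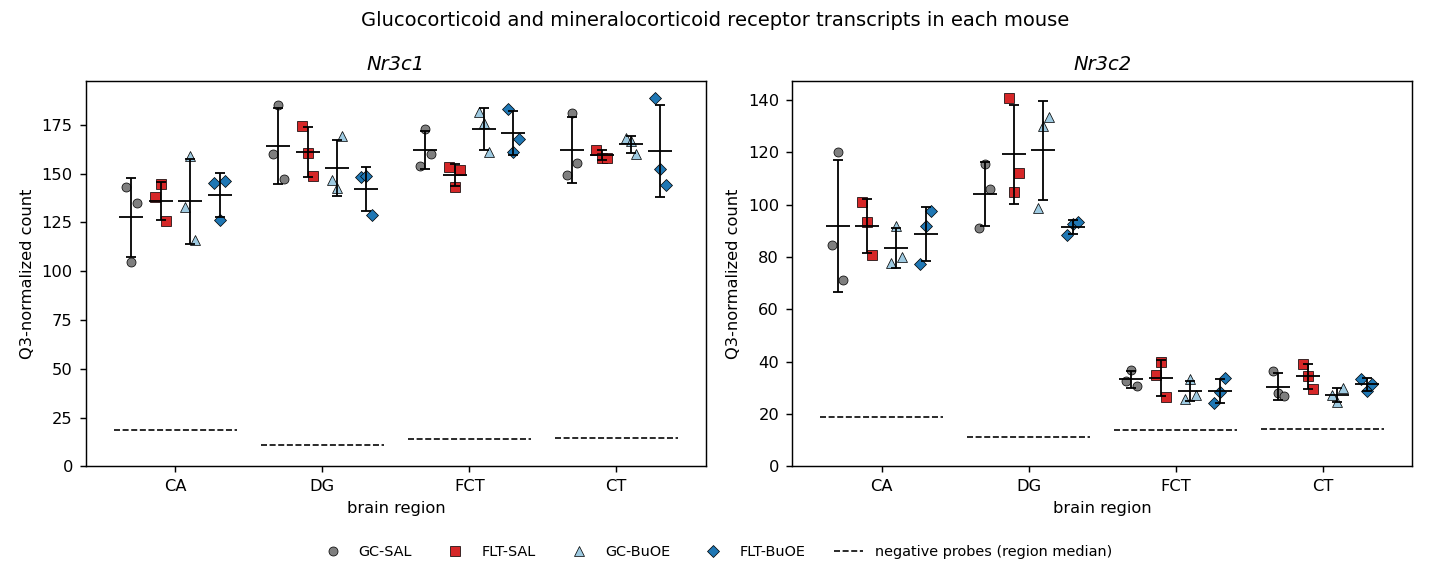
Q3-normalized counts (y axis, from 0) of Nr3c1 and Nr3c2 in each mouse by brain region (x axis) and group, with bars for the mean and SD of 3 mice and a dashed line for the median of the negative probes in the region. Nr3c2 lies between 71.2 and 141 in CA and DG and between 24.3 and 40.0 in FCT and CT, while Nr3c1 stays between 105 and 188 in all regions.

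Among the targets, Sgk1 (chr10:21882184-21999903, plus strand) was higher in FLT-SAL than in GC-SAL in both cortical regions, and it was the only gene of the 7 called in any of the flight or treatment comparisons. In CT, FLT-SAL mice had 68.4, 85.0 and 91.3 Q3 units and GC-SAL mice 35.2, 38.1 and 32.6, so that the groups lay far apart. Their means were 81.6 ± 11.8 and 35.3 ± 2.77 (SD, n = 3 each), a log2 difference of 1.18 (SE 0.19, adjusted p = 3.41e-04, limma). In FCT the FLT-SAL values were 93.2, 108 and 78.7 and the GC-SAL values 53.7, 47.1 and 43.6, again without overlap. The means were 93.3 ± 14.6 and 48.1 ± 5.16, a log2 difference of 0.93 (SE 0.19, adjusted p = 0.0192).

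In the hippocampus the differences had the same sign and did not pass the test. In CA, FLT-SAL mice had 41.2, 40.0 and 57.0 and GC-SAL mice 24.6, 21.0 and 31.1, which did not overlap, and the log2 difference was 0.82 (SE 0.24, adjusted p = 0.197). Of the GC-SAL values in CA, 2 of the 3 were within 1.5 times the negative probes of their AOI, a level at which a fold is understated. In DG, FLT-SAL mice had 37.8, 43.1 and 57.2 and GC-SAL mice 30.4, 40.0 and 37.0, which overlapped, with a log2 difference of 0.34 (SE 0.20, adjusted p = 0.776). Averaged over the 4 regions of each mouse, Sgk1 came to 63.0 ± 6.69 for FLT-SAL against 35.1 ± 0.627 for GC-SAL (geometric means, n = 3 mice each), a log2 difference of 0.82 (SE 0.11, adjusted p = 5.26e-06). The difference between the flight effects in hippocampus and cortex was -0.47 (SE 0.22, adjusted p = 0.996), so that a larger effect in cortex was not shown. That test called 0% of all genes.

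Against these counts, 1 of 7 genes called in FCT and 1 of 7 in CT, limma called 0.0507% of all genes in FCT and 0.0887% in CT, and 0.101% for the average of the regions, where 1 of 7 was called. In CA and DG it called 0 of the 7 and 0.139% and 0.266% of all genes. At an unadjusted p below 0.05 there were 4 of 7 genes in FCT against 5.66% of all genes, 2 in CA against 6.73%, 1 in CT against 5.27% and 0 in DG against 7.41%. Over the 28 gene and region values, edgeR and DESeq2 on whole counts each called the same number as limma, 2 of 28. Groups did not overlap for 4 of the 7 genes in FCT against 12.1% of all genes, 2 in CA against 12.9%, 1 in CT against 10.4% and 0 in DG against 14.8%.

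The call in CT held when each of the 12 mice in turn was left out, with adjusted p from 9.42e-05 to 0.0128. The call in FCT was lost without FLT-SAL mouse 1 (log2 difference 0.93, adjusted p = 0.124) or 2 (0.82, 0.293), or without GC-SAL mouse 2 (0.92, 0.0768) or 3 (0.87, 0.168), at differences close to that of all mice.

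Summed markers of oligodendrocytes, the myelin-forming cells, were highest in FLT-SAL in both cortical regions, as was mean Sgk1. Of 10 listed markers 9 were measured, and in CT 9 of 9 were higher in FLT-SAL than in GC-SAL and 4 were called. Of all genes in CT, 51.3% were higher and 0.0887% were called. The summed level of the 9 markers in CT was 1364 to 1885 Q3 units in FLT-SAL, while FLT-BuOE had 696 to 853, GC-SAL 763 to 824 and GC-BuOE 878 to 1077. In FCT 8 of 9 were higher and 0 were called by limma, against 55.8% and 0.0507% of all genes. There FLT-SAL had sums of 1277 to 1964, GC-BuOE 568 to 1032, FLT-BuOE 840 to 1108 and GC-SAL 1063 to 1244. FLT-SAL did not overlap any other group in either cortical region. In CA the FLT-SAL sums of 598 to 772 overlapped the GC-SAL sums of 526 to 609.9, and in DG the sums of 512 to 561 overlapped those of 545 to 588. The part of these cells in the Sgk1 difference was not tested beyond the fit with the marker sum as a covariate. Over the 12 AOIs of a region, which share slides and depth by group, the Pearson correlation of log2 Sgk1 with the log2 sum was 0.761 in FCT, 0.750 in CT, 0.448 in CA and -0.061 in DG. These values include the FLT-SAL AOIs. Mean Sgk1 in CT was 56.3 in FLT-BuOE, 42.0 in GC-BuOE and 35.3 in GC-SAL, while of these groups GC-BuOE had the highest median sum. In FCT mean Sgk1 was 75.5, 48.4 and 48.1 in that order, while of these groups GC-SAL had the highest median sum.

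With the log2 sum of these markers as a covariate, a fit added after the data were seen, the Sgk1 difference between FLT-SAL and GC-SAL was 0.10 in CT (SE 0.47, adjusted p = 0.9996) and 0.56 in FCT (SE 0.20, adjusted p = 0.998). It was 0.77 in CA (SE 0.35) and 0.37 in DG (SE 0.20), and 0.47 for the mean of the regions (SE 0.18, adjusted p = 0.9997). The SE in CT was 0.19 without the covariate, and the call was lost in CT, in FCT and for the mean. With log2 depth as a covariate the difference was 0.95 in CT (adjusted p = 0.119), 0.98 in FCT (adjusted p = 0.701) and 0.09 in CA (adjusted p = 0.982). Depth in FLT-SAL was 603927 to 948561 counts in CA against 370066 to 483270 in GC-SAL, 965868 to 1372780 against 496732 to 767199 in DG and 991160 to 1579380 against 601288 to 897280 in FCT, all without overlap, while in CT the ranges overlapped (988810 to 1440631 against 582154 to 1124863).

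**Figure D2:**
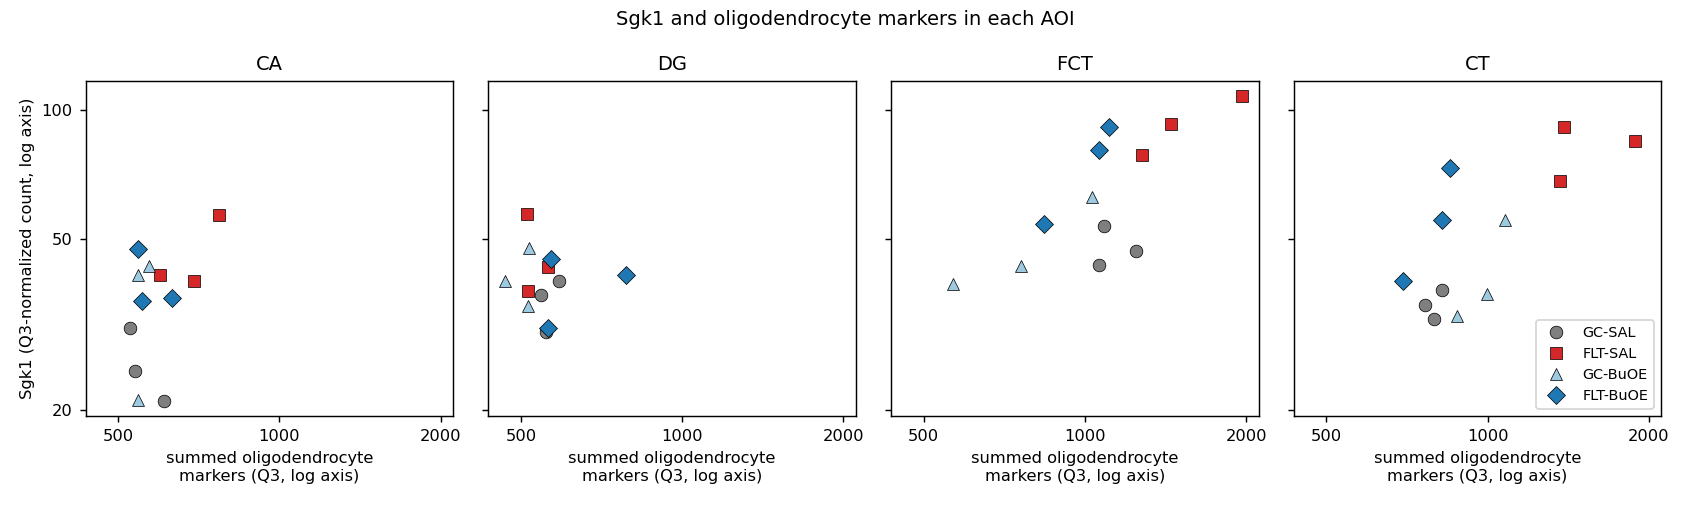
Sgk1 (y axis, Q3-normalized count, log scale) against the summed Q3-normalized counts of 9 oligodendrocyte markers (x axis, log scale) in each AOI, by region and group. In FCT and CT the 3 FLT-SAL mice are highest on the x axis (1277 to 1964 and 1364 to 1885), while in DG they sit among the other groups.

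Markers of other cell types were summed in the same way. In CT the microglial sums of FLT-SAL (164 to 179, 6 of 7 listed markers measured) overlapped those of GC-SAL (167 to 202), and so did the astrocyte sums (612 to 746 and 548 to 661, 7 of 7). In CA the sums of CA1 neuron markers were 496 to 541 in FLT-SAL and 332.5 to 398 in GC-SAL, without overlap, and their part in the CA values was not tested. Interneuron markers were higher in FLT-SAL for 5 of 5 measured genes in FCT and in CT, with 0 called by limma and median log2 differences of 0.35 and 0.38, against 0.03 and 0.01 over all genes. Interneuron sums were higher without overlap in CA, in DG and in FCT (258 to 322 and 214 to 241). So were excitatory neuron sums in CA and DG. In DG the astrocyte sums were higher in FLT-SAL without overlap (468 to 532 and 385 to 431), and so were the granule sums. Microglial sums in DG were lower in FLT-SAL without overlap (156 to 162 and 165 to 183). The part of these cells in the values of the 7 genes was not tested.

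Sgk1 in the BuOE groups passed no test, and in Q3 units the FLT-BuOE means lay between those of FLT-SAL and GC-SAL in both cortical regions. In CT, FLT-BuOE mice had 40.0, 73.4 and 55.4 and GC-BuOE mice 33.2, 37.4 and 55.4, which overlapped each other and, for FLT-BuOE, the lower end of FLT-SAL. FLT-BuOE differed from FLT-SAL by -0.56 on the log2 scale (SE 0.19, unadjusted p = 0.00504, adjusted p = 0.528), and the interaction of flight and BuOE was -0.77 (SE 0.27, adjusted p = 0.844). In FCT, FLT-BuOE mice had 54.3, 80.9 and 91.3 and GC-BuOE mice 43.3, 39.3 and 62.8, which overlapped. FLT-BuOE stood 0.63 above GC-BuOE (SE 0.19, adjusted p = 0.375) and -0.32 relative to FLT-SAL (SE 0.19, adjusted p = 0.710). As a ratio to the negative probes of each AOI, the FCT median was 6.25 in FLT-BuOE and 5.18 in FLT-SAL, the opposite order. In CA, FLT-BuOE mice had 35.9, 47.4 and 36.5 and GC-BuOE mice 21.1, 41.4 and 43.3. In DG the FLT-BuOE values were 45.0, 41.3 and 31.1 and the GC-BuOE values 47.8, 35.0 and 40.0, and the groups overlapped in both hippocampal regions.

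Averaged over regions, the Sgk1 difference was -0.33 between FLT-BuOE and FLT-SAL (95% interval -0.55 to -0.10, adjusted p = 0.365), 0.20 between GC-BuOE and GC-SAL (-0.03 to 0.42, adjusted p = 0.998) and 0.30 between FLT-BuOE and GC-BuOE (0.07 to 0.53, adjusted p = 0.364), and the interaction was -0.52 (-0.84 to -0.20, adjusted p = 0.426). None passed the test. With the oligodendrocyte markers as covariate the difference between FLT-BuOE and FLT-SAL turned to 0.54 in CT and 0.02 for the average. In CT the marker sums did not overlap (1364 to 1885 in FLT-SAL, 696 to 853 in FLT-BuOE). That fit can therefore hardly tell group and covariate apart. In CT, 4 of the 9 oligodendrocyte markers were called lower in FLT-BuOE than in FLT-SAL, while limma called 0.0697% of all genes.

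**Figure D3:**
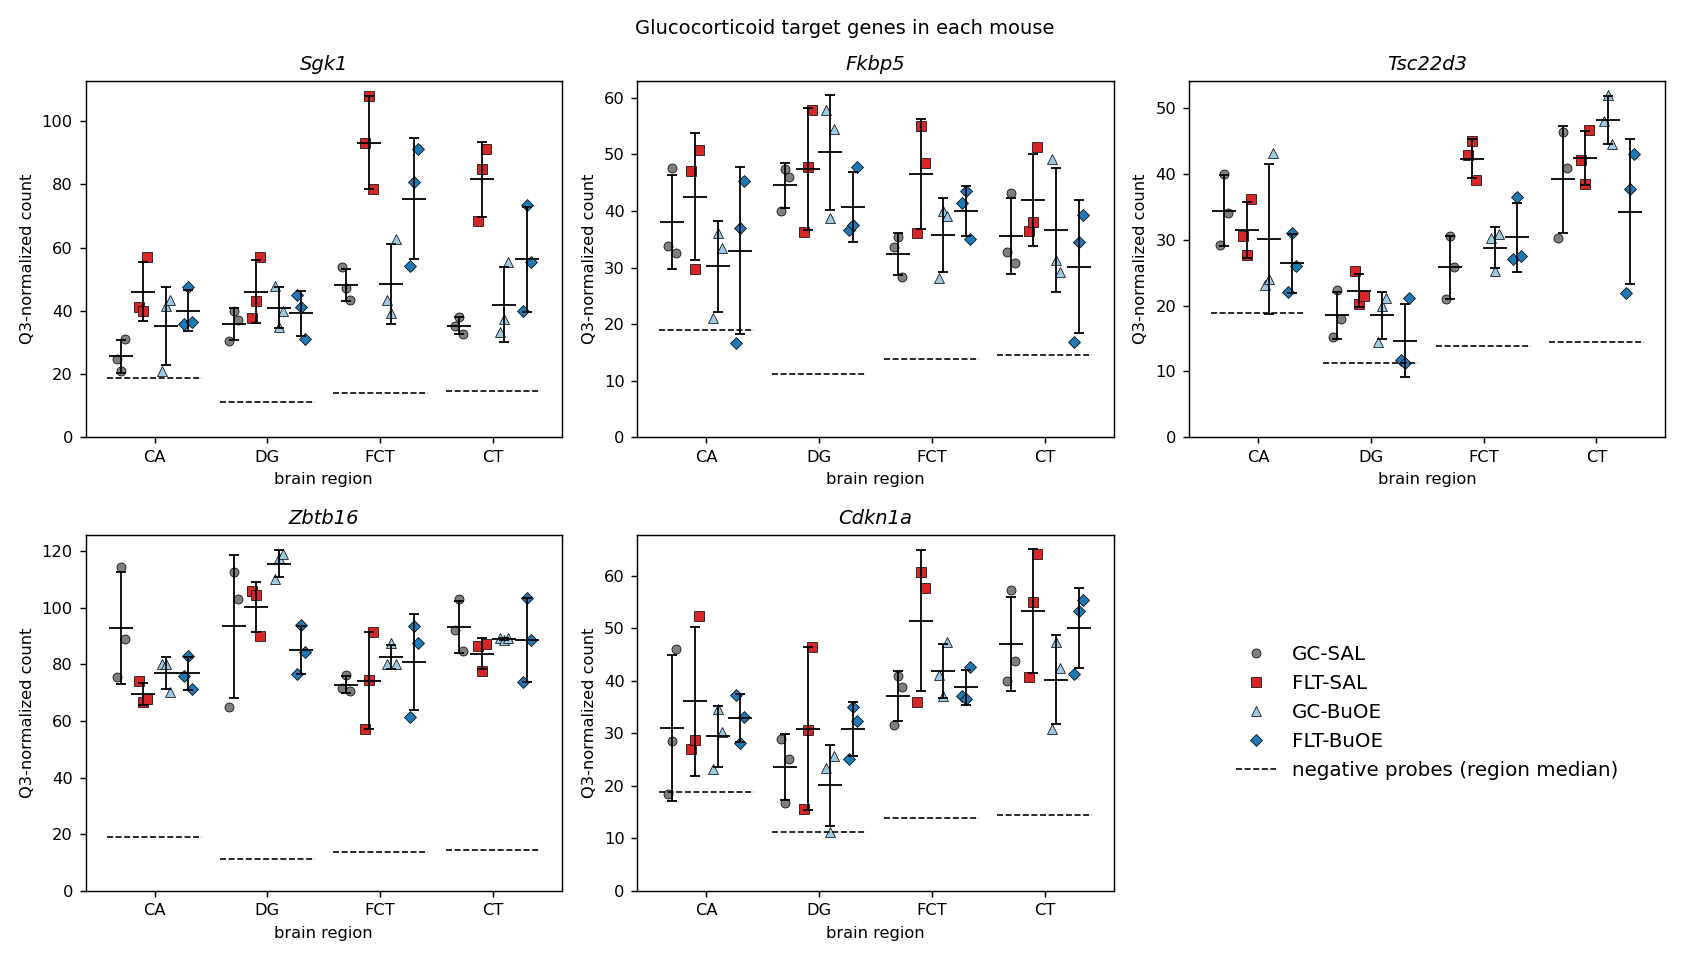
Q3-normalized counts (y axis, from 0) of the 5 target genes in each mouse by brain region (x axis) and group, with bars for the mean and SD of 3 mice and a dashed line for the median of the negative probes in the region. Sgk1 in FLT-SAL lies above GC-SAL in CA, FCT and CT, with 68.4 to 108 in FCT and CT against 32.6 to 53.7.

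Fkbp5 (chr17:28399094-28517527, minus strand), the feedback co-chaperone, was not called in any comparison of groups. Its clearest separation between FLT-SAL and GC-SAL was in FCT, where flight mice had 36.0, 55.0 and 48.6 and ground mice 33.7, 35.3 and 28.3. The groups did not overlap in Q3 units, by a narrow margin, and the log2 difference was 0.49 (SE 0.19, adjusted p = 0.746). As ratios to the negative probes of each AOI they overlapped, at 2.00 to 3.55 in FLT-SAL and 1.78 to 2.63 in GC-SAL. In CA, DG and CT the differences were 0.14, 0.07 and 0.23, with overlapping groups. In CT the FLT-BuOE mice had 16.8, 34.5 and 39.3 against 36.4, 38.0 and 51.3 in FLT-SAL, a log2 difference of -0.53 (SE 0.22, adjusted p = 0.761). FLT-BuOE mouse 1 was the lowest of all 12 mice in CT, and also in CA at 16.6, where it was 1.03 times the negative probes of its AOI. Averaged over regions, Fkbp5 differed by 0.23 between FLT-SAL and GC-SAL (95% interval -0.02 to 0.48) and by -0.34 between FLT-BuOE and FLT-SAL (-0.59 to -0.09, adjusted p = 0.410).

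Tsc22d3 (chrX:140539528-140600659, minus strand), the gene of GILZ, had its largest difference between FLT-SAL and GC-SAL in FCT. Flight mice had 42.9, 45.0 and 39.1 and ground mice 21.1, 30.6 and 25.9, with no overlap. The means were 42.3 ± 2.99 and 25.9 ± 4.77, a log2 difference of 0.70 (SE 0.20, unadjusted p = 0.00101, adjusted p = 0.356). FLT-BuOE mice in FCT had 27.2, 36.5 and 27.5 and GC-BuOE mice 30.3, 25.2 and 30.9, both below all FLT-SAL mice in Q3 units. As ratios to the negative probes of each AOI, FLT-BuOE (2.13 to 2.82) overlapped FLT-SAL (2.38 to 2.91). GC-BuOE (1.90 to 2.31) did not. FLT-BuOE differed from FLT-SAL there by -0.48 (SE 0.20, adjusted p = 0.557). The flight difference was 0.27 in DG, 0.13 in CT and -0.12 in CA, with overlapping groups. Averaged over regions, FLT-BuOE had 24.9 ± 4.52 and FLT-SAL 33.5 ± 1.74 (geometric means), a log2 difference of -0.42 (SE 0.13, unadjusted p = 0.00134, adjusted p = 0.194), again without overlap. It was -0.27 without FLT-BuOE mouse 1 and -0.09 with the oligodendrocyte markers as covariate.

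Zbtb16 (chr9:48654297-48836222, minus strand) had a difference of the opposite sign in CA. FLT-SAL mice had 74.2, 66.7 and 67.7 there and GC-SAL mice 75.4, 114 and 88.9, and all 3 flight values lay below the ground values. The log2 difference was -0.39 (SE 0.17, adjusted p = 0.681), and in DG, FCT and CT it was 0.13, 0.00 and -0.15, with overlap. In DG the BuOE groups were apart, with 76.7, 93.8 and 84.5 in FLT-BuOE and 110.1, 118 and 119 in GC-BuOE. That difference was -0.44 (SE 0.16, adjusted p = 0.354), and the GC-SAL values of 64.9, 113 and 103 overlapped both.

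Cdkn1a (chr17:29090976-29100727, plus strand) was not called in any comparison of groups. In FCT the FLT-SAL mice had 36.0, 60.7 and 57.6 and the GC-SAL mice 31.6, 40.8 and 38.8, which overlapped through FLT-SAL mouse 1. The log2 difference was 0.43 (SE 0.19, adjusted p = 0.828). FLT-SAL mouse 1 was the lowest FLT-SAL mouse for Cdkn1a in every region, with 27.1 in CA, 15.6 in DG and 40.8 in CT, against 52.3, 46.5 and 64.1 in FLT-SAL mouse 3. The average over regions differed by 0.28 between FLT-SAL and GC-SAL (95% interval 0.02 to 0.55, adjusted p = 0.513). It was 0.53 without FLT-SAL mouse 1 (adjusted p = 0.0309, under the required fold), 0.06 without FLT-SAL mouse 3 and 0.01 with the oligodendrocyte markers as covariate.

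As a group, the 5 targets were higher on average in FLT-SAL than in GC-SAL for 5 of 5 in DG and FCT, 4 of 5 in CT and 3 of 5 in CA, of which 1 passed the test in FCT and 1 in CT. The count in FCT includes Zbtb16, whose difference there rounded to 0.00. Of all genes, 48.7% were higher in DG, 55.8% in FCT, 51.3% in CT and 53.5% in CA. The median log2 difference of the targets was 0.49 in FCT, 0.27 in DG, 0.17 in CT and 0.14 in CA, against 0.03, -0.01, 0.01 and 0.02 over all genes in that order. In FLT-BuOE against FLT-SAL, 1 of the 5 was higher in each region, and the median difference was -0.35 in CT, -0.32 in FCT, -0.22 in DG and -0.19 in CA, against -0.02, -0.07, -0.02 and -0.05 over all genes in that order. The share of all genes higher was 47% in CT, 38.7% in FCT, 46% in DG and 41.9% in CA. These comparisons share the FLT-SAL mice, whose depth was highest. With depth as a covariate, FLT-SAL was higher than GC-SAL for 4 of 5 targets in FCT and for 2 of 5 in each other region, and the median turned to -0.08 in DG, -0.19 in CT and -0.23 in CA while it was 0.49 in FCT. In the same fit of FLT-BuOE against FLT-SAL, 2 of 5 were higher in FCT and 3 of 5 in each other region, with medians of -0.30 in FCT, 0.27 in DG, 0.07 in CT and 0.05 in CA. With the oligodendrocyte markers as covariate, 5 of 5 were higher in FLT-SAL than in GC-SAL in DG, 4 in FCT, 2 in CT and 1 in CA. In that fit of FLT-BuOE against FLT-SAL, 4 of 5 were higher in CT, 2 in FCT, 2 in CA and 1 in DG. The medians were 0.19, -0.11, -0.03 and -0.30 in that order. The sign of the median between FLT-SAL and GC-SAL was the same with each covariate in FCT, turned with depth alone in DG and turned with each in CA and CT. In GC-BuOE against GC-SAL the median differences of the targets were 0.16 in DG and FCT, 0.02 in CT and -0.23 in CA.

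None of the 7 genes was called in any region in the BuOE comparisons, in flight under BuOE or in the interaction. For FLT-BuOE against FLT-SAL, limma, edgeR and DESeq2 each called 0 of 28 gene and region values, while the share of all genes called was 0.0697% in CT, 0.0317% in FCT, 0.00634% in CA and 0% in DG, and 0.0317% for the average of the regions. An unadjusted p below 0.05 was found for 2 of the 7 genes in DG against 6.20% of all genes, 2 in CT against 5.73%, 1 in FCT against 7.65% and 0 in CA against 4.96%. Groups did not overlap for 2 of the 7 genes in FCT against 12.5% of all genes, 1 in DG against 11.8%, and 0 in CA and in CT against 11.3% and 11.4%. For GC-BuOE against GC-SAL, the 3 tools again called 0 of 28, with 1 unadjusted p below 0.05 (in DG, against 5.21% of all genes) and 3.78% to 5.63% of all genes in the other regions, and limma called 0% of all genes except 0.00634% in FCT. For FLT-BuOE against GC-BuOE the tools called 0 of 28, with an unadjusted p below 0.05 for 3 of 7 in DG, 2 in CT, 1 in FCT and 0 in CA, against 8.24%, 6.65%, 7.17% and 7.52% of all genes, and limma called 0.108% of all genes in DG, 0.0444% in CA, 0.019% in FCT, 0.0127% in CT and 0.0887% for the average. For the interaction, with no fold required, the tools called 0 of 28, and an unadjusted p below 0.05 was found for 2 of 7 in DG, 2 in CT, 1 in FCT and 0 in CA, against 6.39%, 4.81%, 5.43% and 5.39% of all genes, while 0.019% of all genes were called in CT, 0.00634% in CA and in FCT, and 0% in DG and for the average.

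**Figure D4:**
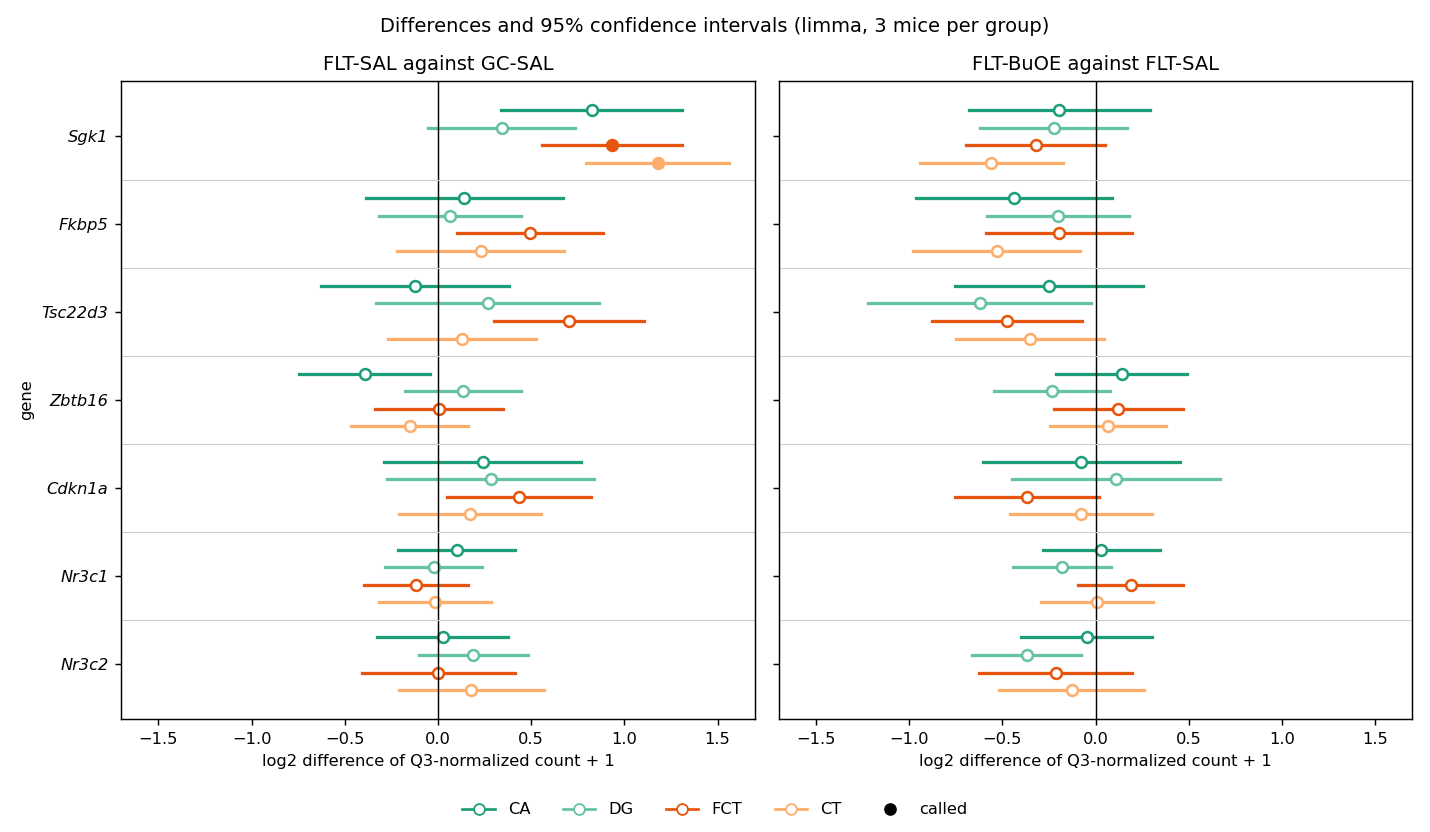
Log2 differences of Q3-normalized count + 1 (x axis) with 95% confidence intervals for the 7 genes (y axis) in 4 regions, for FLT-SAL against GC-SAL (left) and FLT-BuOE against FLT-SAL (right), with filled points for called values. Only Sgk1 in FCT (0.93) and CT (1.18) is filled, and both receptors stay within 0.37 of 0.

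The targets also differed between regions of the same mice. Cdkn1a was lower in the hippocampus, at 32.3 ± 9.38 in CA and 26.3 ± 9.48 in DG against 42.3 ± 8.82 in FCT and 47.6 ± 9.44 in CT (SD, n = 12), a log2 difference of -0.65 within mice (SE 0.08, adjusted p = 3.67e-07). Tsc22d3 was lowest in DG, at 18.5 ± 4.41, against 30.6 ± 6.70 in CA, 31.8 ± 7.45 in FCT and 41.1 ± 8.23 in CT. DG was -0.71 relative to CA (SE 0.12, adjusted p = 1.27e-04), which was called. The median ratio of Tsc22d3 to the negative probes was 1.64 in DG and in CA, with background medians of 11.2 and 18.9. That call therefore cannot be told apart from the difference in background. Hippocampus was -0.58 relative to cortex (SE 0.07, adjusted p = 3.35e-07), just under the required fold. Over all groups, Sgk1 averaged 36.7 ± 10.8 in CA, 40.5 ± 7.39 in DG, 53.8 ± 21.1 in CT and 66.3 ± 23.2 in FCT. Hippocampus was -0.57 relative to cortex (SE 0.08, adjusted p = 4.20e-06), also under the required fold. These values include the high cortical levels of FLT-SAL, whose means were 46.1 in CA, 46.0 in DG, 81.6 in CT and 93.3 in FCT. In GC-SAL they were 25.6, 35.8, 35.3 and 48.1 in the same order. Within the hippocampus and within the cortex, Sgk1 did not differ beyond the required fold, with 0.18 for DG against CA and 0.31 for FCT against CT (adjusted p = 0.284). DG was not tested against CT.

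In Q3 units, Fkbp5 and Zbtb16 were higher in DG than in CA, the opposite of Tsc22d3. Fkbp5 averaged 45.7 ± 7.98 in DG and 35.9 ± 10.6 in CA, a log2 difference of 0.38 (SE 0.12, adjusted p = 0.0321), and Zbtb16 98.6 ± 16.9 and 79.0 ± 12.9, a difference of 0.31 (SE 0.08, adjusted p = 0.0142), both under the required fold. In FCT and CT, Fkbp5 averaged 38.7 ± 7.84 and 36.1 ± 9.30, and Zbtb16 77.6 ± 11.4 and 88.7 ± 8.56. In the hippocampus against cortex, 2 of the 7 genes were called (Nr3c2 and Cdkn1a) and 3.19% of all genes. In DG against CA it was 1 of 7 and 4.09%, and in FCT against CT 0 of 7 and 0.076%, with 3 of 7 at an unadjusted p below 0.05 against 9.33% of all genes. The background of the negative probes was highest in CA and lowest in DG, which bears on genes near it such as Tsc22d3.

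A wider list of genes known to respond to glucocorticoids was read in the same way. Of 24 further responsive genes listed, 23 were measured. Between FLT-SAL and GC-SAL, 1 of the 23 was called in each region but CT, where 0 were. The share of all genes called by limma ran from 0.0507% (FCT) to 0.266% (DG). The listed gene called was in every case Mt1, a metallothionein that binds zinc and copper and that is also induced by metals and oxidative stress. Mt1 was also called for the average of the regions (log2 difference 0.74, adjusted p = 1.09e-05, limma), where 0.101% of all genes were. In FCT its mean was 231 ± 21.1 for FLT-SAL against 129 ± 38.3 for GC-SAL (SD, n = 3 each), a log2 difference of 0.87 (SE 0.16, adjusted p = 0.0110), in DG 0.81 (adjusted p = 0.00114), in CA 0.67 (adjusted p = 0.0452) and in CT 0.62 (adjusted p = 0.165). The median log2 difference of the 23 genes was 0.20 in CT, 0.15 in CA and FCT and 0.07 in DG, with 17 of them higher in FLT-SAL in CA and FCT and 13 in DG and CT. Over all genes the medians were 0.01 in CT, 0.02 in CA, 0.03 in FCT and -0.01 in DG. The share of all genes higher was 53.5% in CA, 55.8% in FCT, 48.7% in DG and 51.3% in CT. In FLT-BuOE against FLT-SAL limma called 0 of the 23 in any region, against 0% of all genes in DG to 0.0697% in CT.

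Receptor chaperones, co-regulators and steroid transporters or enzymes (16 of 17 listed were measured) and hypothalamic stress peptides and their receptors (7 of 8) gave 0 limma calls in FLT-SAL against GC-SAL and in FLT-BuOE against FLT-SAL in any region, with 5 to 9 and 2 to 5 of them higher in flight in saline mice, depending on the region. Of all genes, 48.7% to 55.8% were higher in flight in saline mice, and limma called 0.0507% to 0.266% of them. In FLT-BuOE against FLT-SAL it called 0% to 0.0697% of all genes. Hspa8, a constitutive heat shock cognate that helps fold the receptor, was lower in FLT-BuOE than in GC-BuOE in CA (106 ± 12.3 against 185 ± 25.2, log2 difference -0.79, adjusted p = 0.0264) and in DG (139 ± 19.7 against 217 ± 23.2, -0.64, adjusted p = 0.0195). It is named, after its values were seen, because it was the only gene of these lists called between groups. For FLT-BuOE against GC-BuOE limma called 0.0444% of all genes in CA and 0.108% in DG.

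Across the 48 AOIs, with the mean of each region removed, the genes most like Sgk1 among 13829 compared were Ptgds (Pearson r = 0.722), Mt1 (0.714) and Dbndd2 (0.686). Those most like Fkbp5 were Sod2 (0.645), Tacc2 (0.618) and Foxk1 (0.609), and those most like Tsc22d3 were Gm29733 (0.678), Fads1 (0.596) and Tle3 (0.590). Nr3c1 was most like Rps18 (0.591), Nr3c2 most like Ncf4 (0.609), Zbtb16 most like Pfkp (0.610) and Cdkn1a most like Ankrd16 (0.646). Among the 7 genes themselves, the closest pairs were Fkbp5 with Tsc22d3 (0.557) and Sgk1 with Cdkn1a (0.435), while Sgk1 with Tsc22d3 gave 0.245 and Nr3c1 with Nr3c2 -0.063. The AOIs share mice, slides and depth, so that these values are descriptions only.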

How the data were processed

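Transcripts were measured by GeoMx digital spatial profiling in 48 AOIs (12 mice, 4 regions) of fixed, paraffin-embedded left hemibrain sections, in regions selected with GFAP, Iba1 and nuclear staining. The authors deposited deduplicated counts of 20175 probes per AOI (GeoMx NGS Pipeline 2.3.4, per the file headers, with no normalization). The authors made the signal tables, 1 for each region with 15782 genes, by scaling counts to the upper quartile of each AOI, and deposited them. Their tables of fold changes and p-values were not used. Groups came from the sample labels, and 0 columns of values per sample were left unused. limma 3.58.1 with a mean-variance trend was fitted to log2(Q3-normalized count + 1) over the 12 AOIs of a region, with Benjamini-Hochberg adjustment over all genes. A call required an adjusted p below 0.05 and a 1.5-fold difference, and no fold for interactions. Means over regions and differences between regions were fitted per mouse. edgeR 4.0.16 and DESeq2 1.42.0 were run on whole counts recovered from the signal (99.98% of values within 0.02 of a whole count). Fold changes are on the log2(value + 1) scale. Fits were tested on simulated data. All 7 genes are named, and other listed genes where called, except that cell type markers are given as counts and sums and 1 item is not reported here by name. Genes and lists were chosen with earlier results of these data known. Coordinates are from GENCODE for GRCm38, and none is given for Nr3c1. AOIs of 1 group with the same replicate number were taken as 1 mouse, since the region numbers on a slide run through the 4 regions of each replicate in turn.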

Additional observations from a re-analysis of the deposited data

How the results depend on the processing

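The number of genes called was 1 in FCT and 1 in CT for FLT-SAL against GC-SAL, and it fell to 0 in both regions without the mean-variance trend, with log2 depth as a covariate and with the oligodendrocyte markers as a covariate. For the average of the regions it was also 1 and fell to 0 with the oligodendrocyte markers as a covariate, and the fits without the trend and with depth were not run there. The Sgk1 difference without the trend was the same by construction, with adjusted p = 0.694 in FCT and 0.0565 in CT. Leaving out 1 mouse gave 0 to 1 genes in FCT, and 2 to 4 genes for hippocampus against cortex, with 4 without FLT-SAL mouse 3 or FLT-BuOE mouse 1, where Sgk1 and Tsc22d3 also passed the fold. A pseudocount of 5 left 1 gene (Nr3c2) there, since Cdkn1a came to -0.57. With the oligodendrocyte covariate, FLT-BuOE against FLT-SAL turned to 0.54 for Sgk1 in CT, to 0.0186 for the Sgk1 average and to 0.0163 for the Fkbp5 average, and the Sgk1 interaction in CT to 0.67. In CT the marker sums of FLT-SAL overlapped no other group, so that the fit there can hardly tell group and covariate apart. With the depth covariate the Zbtb16 interaction in DG turned to 0.0170. The cause was not tested.

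Replicate numbers did not pair mice across groups (72 correlations of deviations, -0.188 to 0.139). A replicate block changed no count and no named call. In it Sgk1 differed by 0.93 in FCT (adjusted p = 0.0127). Pseudocounts, the filter on low genes, edgeR, DESeq2 and the fit of 2 groups alone changed no other count. Sgk1, Fkbp5, Tsc22d3 and Cdkn1a rested on a median of 26.5 counts per AOI in the hippocampus, which limits the differences that could be seen, as do 3 mice a group.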
